A study of Homo sapiens with 6 samples.

Results

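The AP-1 and ATF3 immediate early factors are a group of 10 genes that comprises the Fos family (FOS, FOSB, FOSL1 and FOSL2), the Jun family (JUN, JUNB and JUND), the related factors ATF3 and BATF3, and the immediate early gene IER2. They were chosen by name as a gene family, and each matched 1 of the 35410 genes in the count table. All 10 passed the filter on low counts and are among the 15465 genes tested. RNA was measured by MACE-Seq, a sequencing of fragments from the 3′ ends of polyadenylated transcripts, in 3 biological replicates of each of 2 cell lines. The labels give both lines as SEM, an established t(4;11) leukemia line with the KMT2A::AFF1 fusion, and describe them as proB cells and B cell precursor leukemia. SEM::EGR3 carries an EGR3 vector with a doxycycline-inducible transgene, and SEM::mock was transfected with the empty vector. Both lines, the control included, received 1 µg/mL doxycycline for 48 h before RNA extraction. The comparison asks how these factors differ in RNA level between a line that overexpresses EGR3, a zinc finger factor of the immediate early class, and its control. There is 1 transfected line per condition, so the p-values measure the spread between cultures of these 2 lines.

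AP-1 is a dimer of basic leucine zipper proteins. Fos proteins need a partner such as a Jun protein to bind DNA, whereas Jun proteins can also pair with one another, and ATF3 and BATF3 are related zipper proteins that pair with Jun. Many of these genes are transcribed within minutes of a growth, stress or antigen receptor signal without new protein synthesis, which is what the term immediate early means. IER2 is induced with them but is not a zipper protein. In blood cells the factors are known for their roles in proliferation, differentiation and stress responses.

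The library labels were checked first. EGR3 was counted 8, 10 and 6 times in SEM::mock against 9768, 4952 and 5557 times in SEM::EGR3, a 444-fold higher level (log2 change 8.79 ± 0.11, SE). Library totals ran from 5286115 to 6181388 counts in SEM::mock and from 7293092 to 15106018 in SEM::EGR3. The 8 B lineage markers examined summed to 50 counts over SEM::mock and to 15548 over SEM::EGR3, or 1.41 to 4.31 against 469 to 500 CPM (counts scaled to the normalized library total). In SEM::mock EBF1 and BLNK were at 0 counts, which allows up to 3 counts per library. BLNK was near absent from SEM::EGR3 too, at 0, 1 and 0 counts, so it does not set the lines apart. As a set, the markers of the labelled proB identity were near absent from SEM::mock. Of the 8 erythroid and megakaryocyte markers 7 are in the table, and all 7 were counted in both lines, with summed levels of 3561 to 3689 CPM in SEM::mock and 2861 to 2867 CPM in SEM::EGR3. Of these 7, 2 were called higher and 5 lower in SEM::EGR3, with a median log2 change of -1.25. All 6 tested B lineage markers were called higher, with a median of at least 6.57. That value is a minimum, since markers with up to 3 counts per SEM::mock library enter at a lower bound. The myeloid markers summed to 224 to 246 and 189 to 191 CPM, with MPO and CSF1R at 0 counts in SEM::mock, and the T cell markers to 86.9 to 99.6 and 132 to 144 CPM, with CD5 at 0 counts in SEM::mock. The fibroblast and epithelial markers summed to 751 to 783 and 454 to 477 CPM, with none at 0 in all 3 libraries of a line. Within these lists the markers moved both ways, with 2 myeloid markers higher and 2 lower (median log2 change -0.09). Of the T cell markers 3 were higher and 3 lower (median at least -0.35, again with lower bounds). Of the fibroblast and epithelial markers 2 were higher and 3 lower (median -0.42). The B lineage markers thus go against the label of SEM::mock. In SEM::EGR3 too the erythroid and megakaryocyte markers (2861 to 2867 CPM) summed above the B lineage markers (469 to 500 CPM). The proB label of SEM::EGR3 is thus not borne out by its markers as a whole either. Whether SEM::mock is the same cell line as SEM::EGR3 apart from the vector was not tested. The names SEM::mock and SEM::EGR3 therefore stand for the libraries so labelled, and rose and fell mean higher or lower in the libraries labelled SEM::EGR3 than in those labelled SEM::mock. All 3 SEM::mock libraries share the near absence of B lineage markers, so no value without these libraries can be given. The difference in lineage markers cannot be told apart from EGR3 expression in any result below. Its part in the levels of the AP-1 factors was not tested, and in bulk RNA fewer cells of a type and less RNA per cell cannot be told apart either.

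Promoters were examined for the members' own binding motif, since several AP-1 genes are known to be bound by AP-1 or ATF proteins. RefSeq (GRCh38.p14) promoters, 250 bases before to 50 bases after the start site, were matched for 8 members and not for FOSL1 and BATF3. Both strands were searched for TGANTCA, the AP-1 site, for the 8-letter ATF site TGACNTCA, for the EGR motif GCGNGGGCG and for the CArG box of serum response factor, which is named only. TGACNTCA was in the promoters of 3 members, JUN, JUND and ATF3 (in the first of its 2 promoters), and in 7.72% of all 35116 promoters. The 3 matches are shown with 11 bases on each side because these 3 genes share the motif and were all called higher in SEM::EGR3. Each sequence runs 5′ to 3′ on the gene's strand, with the motif in capitals.
JUN, chr1:58784096-58784125, minus strand: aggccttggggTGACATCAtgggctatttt
JUND, chr19:18281804-18281833, minus strand: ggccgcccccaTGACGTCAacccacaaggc
ATF3, chr1:212565273-212565302, plus strand: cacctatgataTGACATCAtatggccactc
The motif ended 60 bases before the RefSeq start site in JUN, 193 bases before it in JUND and 116 bases before it in ATF3. The ATF3 and JUND stretches lie outside the gene as GENCODE gives it, and the JUN stretch lies within the extent that GENCODE gives JUN. TGANTCA was found in 1 member, FOSL2, after the start site, and in 7.71% of all promoters. GCGNGGGCG (9.43% of promoters) and the CArG box (1.29%) were found in 0 of the 8 members with a promoter. Sites more than 250 bases before the start site were not searched, so the members, FOS included, may hold these motifs there. A match describes the letters only, and whether the motif goes with the direction of change was not tested.

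The 250 bases upstream of JUND and JUNB are shown because these Jun genes moved in opposite directions and differ in the motif, which is in capitals in JUND and has no match in JUNB.
JUND, chr19:18281623-18281872, minus strand: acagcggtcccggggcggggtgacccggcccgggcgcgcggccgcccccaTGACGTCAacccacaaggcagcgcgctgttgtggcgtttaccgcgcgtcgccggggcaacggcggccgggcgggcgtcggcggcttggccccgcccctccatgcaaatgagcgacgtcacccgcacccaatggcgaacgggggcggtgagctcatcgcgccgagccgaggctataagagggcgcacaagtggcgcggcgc
JUNB, chr19:12791236-12791485, plus strand: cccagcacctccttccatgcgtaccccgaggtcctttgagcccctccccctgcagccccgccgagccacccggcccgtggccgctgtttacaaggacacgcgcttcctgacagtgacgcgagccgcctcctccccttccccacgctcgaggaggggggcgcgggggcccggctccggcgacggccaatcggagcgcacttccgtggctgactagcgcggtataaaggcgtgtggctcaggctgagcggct
The GC content of these stretches was 74.8% for JUND and 70.8% for JUNB. The part of the motif in their opposite changes was not tested.

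The members did not move together. JUN, JUND, ATF3 and BATF3 were called higher in SEM::EGR3, FOSL1, JUNB and IER2 were called lower, and FOS, FOSB and FOSL2 were not called at an adjusted p of 0.05 (quasi-likelihood test of edgeR, adjusted by Benjamini-Hochberg). The 7 called members are 70% of the 10, beside 68.5% of all tested genes, a share near the background. The 4 called higher stand beside 36.5% of tested genes called higher, and the 3 called lower beside 32.0% called lower. In 9 members the ranges of the 2 lines did not overlap, beside 70.1% of tested genes. The median log2 change of the members was 0.33, and that of all tested genes 0.03. Values follow by family, as CPM normalized by the trimmed mean of M-values (TMM).

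**Figure D1:**
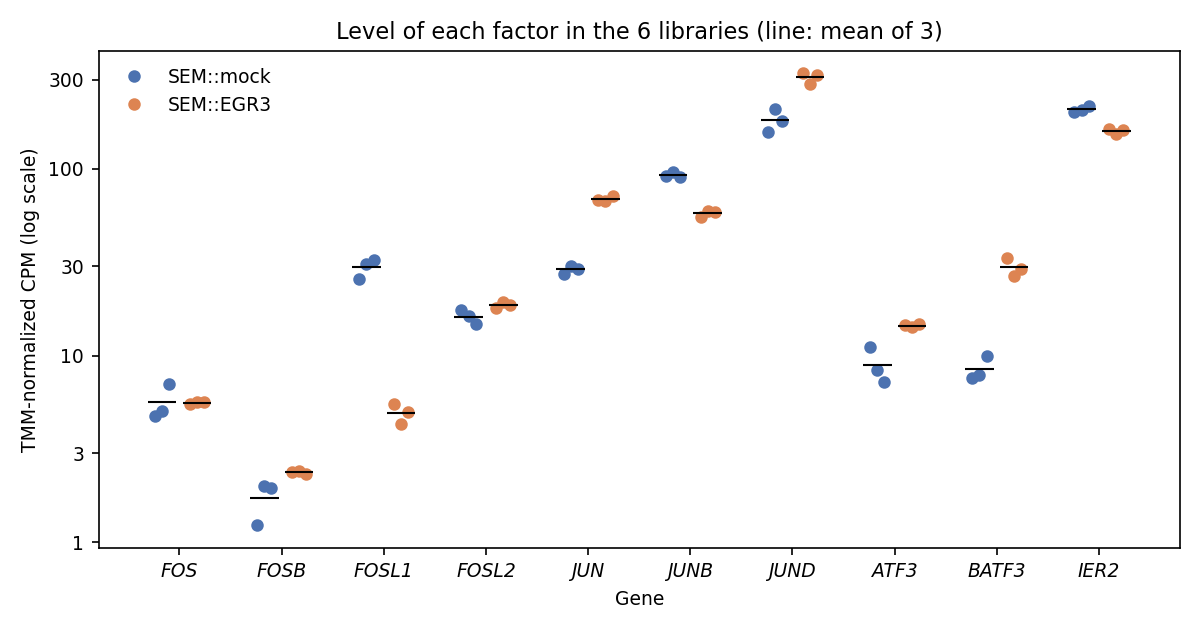
Normalized CPM (log axis) of the 10 genes in each library, with 1 point per library and a line at the mean of the 3 libraries. FOSL1 falls from 29.7 to 4.92 CPM and BATF3 rises from 8.49 to 29.7 CPM, while the FOS points of the lines overlap.

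FOS (chromosome 14, 75278774 to 75282230, plus strand), which encodes the founding Fos subunit, was at 4.77, 5.02 and 7.06 CPM in SEM::mock and at 5.48, 5.66 and 5.64 CPM in SEM::EGR3. The SEM::EGR3 libraries lie inside the SEM::mock range. Its log2 change was 0.00 (SE 0.19, 95% interval -0.40 to 0.40, adjusted p = 0.995, edgeR), so changes within that interval were not detectable at 27 to 85 counts per library.

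FOSB (chromosome 19, 45467995 to 45475179, plus strand), a Fos subunit known for its stable truncated form in the brain, had the lowest level of the group, at 1.24, 2.01 and 1.96 CPM in SEM::mock and 2.39, 2.42 and 2.32 CPM in SEM::EGR3. Each SEM::EGR3 library was above each SEM::mock library, but the test across all genes did not call the difference (log2 change 0.46, SE 0.30, 95% interval -0.16 to 1.07, adjusted p = 0.181, edgeR). Only 7 to 37 counts per library stand behind these values. FOSB lies wholly inside ERCC1 on the opposite strand, and ERCC1 had 397 to 1358 counts per library. The strand setting of the counting is not given in the sources used here, so reads of the 2 genes may not be separated.

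FOSL1 (chromosome 11, 65892049 to 65900573, minus strand) encodes FRA-1, a Fos subunit that lacks the transactivation domain of FOS. It was at 25.8, 31.0 and 32.4 CPM in SEM::mock and at 5.48, 4.31 and 4.97 CPM in SEM::EGR3, from 146 to 185 and from 32 to 85 counts per library. Every SEM::mock library was above every SEM::EGR3 library by a wide gap. FOSL1 fell 5.88-fold (log2 change -2.56, SE 0.13, adjusted p = 1.45e-14, edgeR), the largest change among the 10 members in either direction. Only 0.414% of the tested genes had a lower log2 change.

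FOSL2 (chromosome 2, 28392448 to 28417312, plus strand) encodes FRA-2, the close relative of FRA-1. It was at 17.5, 16.2 and 14.7 CPM in SEM::mock and at 18.0, 19.4 and 18.6 CPM in SEM::EGR3. The ranges do not overlap, but the gap between the nearest libraries is small. FOSL2 was not called (log2 change 0.20, SE 0.11, 95% interval -0.04 to 0.43, adjusted p = 0.124, edgeR). Without normalization factors it was called higher, at a log2 change of 0.27 (adjusted p = 0.0344).

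The summed level of the 4 Fos genes was 53.2 ± 3.51 CPM in SEM::mock and 31.5 ± 0.225 CPM in SEM::EGR3 (SD, n = 3). FOSL1 made up 52.3% to 57.7% of the sum in the SEM::mock libraries and 13.6% to 17.5% in the SEM::EGR3 libraries. FOSL2 went from 26.2% to 35.5% of the sum to 57.4% to 61.0%, so the leading Fos transcript was FOSL1 in each SEM::mock library and FOSL2 in each SEM::EGR3 library. The ratio of FOSL1 to FOSL2 was 1.86 ± 0.365 in SEM::mock and 0.265 ± 0.0413 in SEM::EGR3. FOS made up 10.5% and 17.7% of the sum and FOSB 3.24% and 7.54%, as means of each line. These sums and shares are descriptions without a test.

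JUN (chromosome 1, 58780788 to 58784327, minus strand), which encodes the most strongly transactivating Jun subunit, was at 27.2, 30.3 and 29.2 CPM in SEM::mock and at 68.0, 67.4 and 71.3 CPM in SEM::EGR3. The libraries of each line lie close together and far from those of the other. JUN rose 2.38-fold (log2 change 1.25, SE 0.08, adjusted p = 2.77e-13, edgeR), and 13.6% of tested genes had a higher log2 change.

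JUNB (chromosome 19, 12791496 to 12793315, plus strand) encodes a Jun subunit known to restrain JUN in several settings. It moved the other way, from 91.2, 95.5 and 90.6 CPM in SEM::mock to 55.5, 59.5 and 58.4 CPM in SEM::EGR3. There was no overlap between the lines, and JUNB fell 1.61-fold (log2 change -0.68, SE 0.06, adjusted p = 8.91e-10, edgeR). Among the tested genes 14.7% had a lower log2 change. JUNB lies wholly inside HOOK2 on the opposite strand, and HOOK2, with 77 to 170 counts per library, fell as well (log2 change -0.49), so the JUNB counts may include reads of HOOK2.

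JUND (chromosome 19, 18279760 to 18281622, minus strand), the Jun gene that many cells express without a stimulus, was at 156, 208 and 180 CPM in SEM::mock and at 324, 284 and 319 CPM in SEM::EGR3. The spread within each line was wider than for JUN and JUNB, and the lines did not overlap. JUND rose 1.70-fold (log2 change 0.77, SE 0.07, adjusted p = 1.62e-09, edgeR), and 20.4% of tested genes had a higher log2 change.

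The 3 Jun genes summed to 303 ± 29.5 CPM in SEM::mock and 436 ± 21.7 CPM in SEM::EGR3 (SD, n = 3). JUND was the largest part in every library, with a mean of 59.8% in SEM::mock and 70.9% in SEM::EGR3. The share of JUNB went from 30.7% to 13.3%, and that of JUN from 9.57% to 15.8%. JUN was below JUNB in each SEM::mock library and above it in each SEM::EGR3 library, with a ratio of 0.313 ± 0.0127 and 1.19 ± 0.0537. With a lower Fos sum and a higher Jun sum, the ratio of Jun to Fos transcripts was 5.69 ± 0.410 in SEM::mock and 13.8 ± 0.779 in SEM::EGR3.

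**Figure D2:**
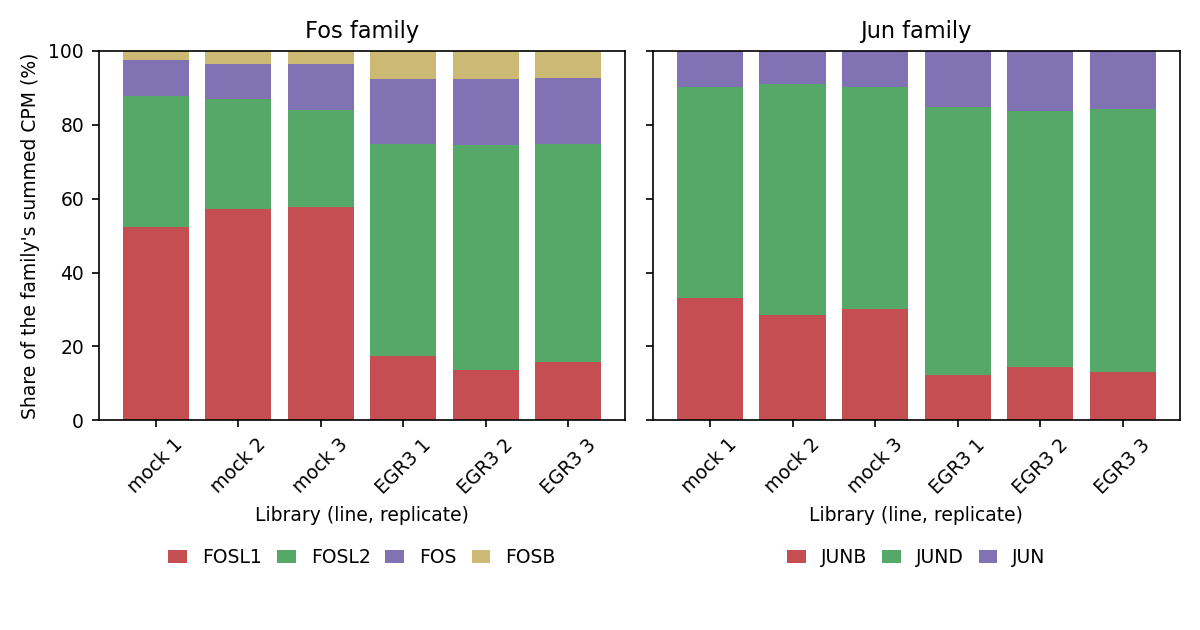
Share of each gene in the summed normalized CPM of the Fos family (left) and the Jun family (right), in percent, with 1 bar per library. FOSL1 is the largest Fos share in the 3 SEM::mock libraries and FOSL2 in the 3 SEM::EGR3 libraries, and the JUNB share shrinks from 30.7% to 13.3% on average.

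ATF3 (chromosome 1, 212565334 to 212620777, plus strand) encodes a stress-induced zipper protein that can repress as a homodimer. It was at 11.1, 8.37 and 7.26 CPM in SEM::mock and at 14.5, 14.1 and 14.8 CPM in SEM::EGR3. The SEM::mock libraries spread more than those of SEM::EGR3, and all 3 lay below them. ATF3 rose 1.62-fold (log2 change 0.69, SE 0.15, adjusted p = 1.74e-04, edgeR), and 22.0% of tested genes had a higher log2 change.

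BATF3 (chromosome 1, 212686418 to 212699985, minus strand) encodes a Jun partner required for a class of cross-presenting dendritic cells. It was at 7.60, 7.87 and 10.0 CPM in SEM::mock and at 33.2, 26.8 and 29.1 CPM in SEM::EGR3. No library of one line came near the other line. BATF3 rose 3.57-fold (log2 change 1.84, SE 0.13, adjusted p = 5.70e-12, edgeR), the largest rise among the members, and 9.61% of tested genes had a higher log2 change. ATF3 and BATF3 stand near each other on chromosome 1, and together they went from 17.4 ± 1.25 to 44.2 ± 3.37 CPM.

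IER2 (chromosome 19, 13150415 to 13154908, plus strand), which encodes a nuclear protein induced by growth factors, was at 202, 207 and 217 CPM in SEM::mock and at 162, 154 and 161 CPM in SEM::EGR3. The lines did not overlap, and the libraries of each line lay close together. IER2 fell 1.31-fold (log2 change -0.39, SE 0.05, adjusted p = 8.33e-07, edgeR), a smaller change than that of any other called member. A lower log2 change was seen in 25.0% of tested genes.

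**Figure D3:**
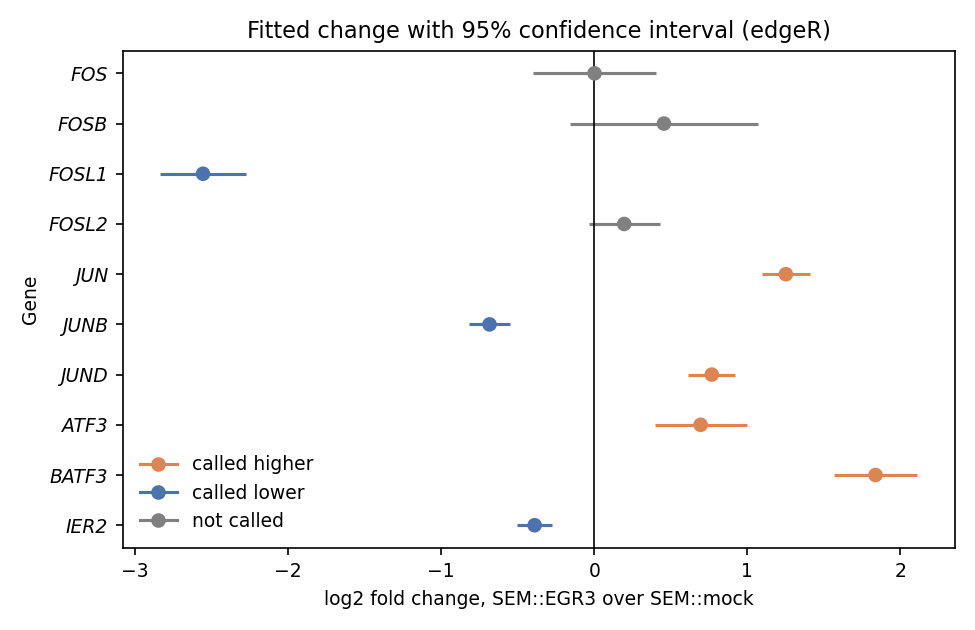
Log2 change of each gene in SEM::EGR3 over SEM::mock from the edgeR fit, with its 95% confidence interval, colored by call. FOSL1, at -2.56, and BATF3, at 1.84, lie farthest from 0, and the intervals of FOS, FOSB and FOSL2 include 0.

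Because a 3′ end library yields fragments from transcript ends only, CPM needs no correction for transcript length, and the levels of the members were ordered in each line. In SEM::mock the order of mean CPM was IER2, JUND, JUNB, FOSL1, JUN, FOSL2, ATF3, BATF3, FOS and FOSB. The ranges of 3 neighboring pairs overlapped there, namely IER2 and JUND, FOSL1 and JUN, and ATF3 and BATF3. In SEM::EGR3 the order was JUND, IER2, JUN, JUNB, BATF3, FOSL2, ATF3, FOS, FOSL1 and FOSB, and the only neighbors that overlapped were FOS and FOSL1. FOSL1 went from the fourth place to the ninth and BATF3 from the eighth to the fifth. FOSB was the lowest member in both lines.

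Other genes of the pathway were counted from lists, and the counts stand beside 36.5% higher and 32.0% lower of all tested genes. Genes are named, and ranked as having risen or fallen most, only among called genes with a mean of 100 or more counts in the higher line. The SEM::EGR3 libraries were deeper, so a gene that fell needed a higher CPM to be named than one that rose. Of the 33 other zipper factors listed (BATF, JDP2, MAF, ATF/CREB, NFE2, BACH and further families), 32 were tested, with 12 higher, 9 lower and 11 not called (median log2 change 0.15). MAFA (2.52), NRL (2.48) and JDP2 (1.60) rose most by log2 change, and NFE2 (-0.68), CREM (-0.53) and BACH2 (-0.45) fell most. Below that count, called genes of this list fell further, down to a log2 change of -1.74. Among 36 tested genes of 40 other immediate early genes, 15 were higher, 17 lower and 4 not called (median 0.12). DUSP2, a MAP kinase phosphatase, gave 0, 1 and 1 counts in SEM::mock and was at least 73.2-fold higher against 3 counts per library, and ARC (log2 change 5.43) and GADD45B (2.40) rose too. EGR1 fell by 2.56 on the log2 scale, IER3 by 1.77 and RHOB by 1.63.

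Serum response factor, its ternary complex partners, MEF2 and CREB coactivators transmit signals to FOS and JUN promoters. Of the 16 genes in that list 14 were tested, with 9 higher, 2 lower and 3 not called (median 0.25). MEF2C rose by a log2 change of 3.41, MEF2D by 1.68 and CRTC1 by 1.37, while ELK3 (-1.99) and MRTFA (-0.27) fell, MRTFA not without SEM::EGR3 replicate 1 (adjusted p = 0.107, edgeR). Among 28 tested genes of 31 MAP kinases and upstream kinases, which phosphorylate Jun and Fos proteins or their regulators, 14 were higher, 4 lower and 10 not called (median 0.27). RPS6KA5 (1.61), MAP2K3 (1.31) and MAPK12 (1.09) rose most, and MAP2K1 (-0.71) and MAPK14 (-0.40) were among those that fell. All 17 genes for turnover and modification of AP-1 proteins were tested, with 3 higher, 8 lower and 6 not called (median -0.02). NEDD4L (-1.03), USP28 (-1.01) and COPS5 (-0.59) fell most, and NCOR1 (0.52), part of a corepressor complex, rose. FBXW7, part of a ligase that degrades JUN, passed narrowly (log2 change 0.22, adjusted p = 0.0436, edgeR) and lost the call in 8 of 14 alternatives, each SEM::mock library left out included (adjusted p 0.00784 to 0.164 over the alternatives).

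Of 40 known AP-1 target genes 27 passed the filter, with 11 higher and 16 lower (median -0.66). These are 40.7% and 59.3% of those tested, beside 36.5% and 32.0% of all tested genes. Targets with 0 to 5 counts per SEM::mock library, CDKN2A and HBEGF among them, passed only through SEM::EGR3 and could only be called higher. Genes called lower can pass through SEM::mock alone in the same way, and both hold for the other lists too. CDKN2A was at 0 throughout SEM::mock, beside 2356, 1127 and 1357 counts in SEM::EGR3. That is at least 279.9-fold higher against 3 counts per library, and HBEGF (log2 change 4.46) and VEGFA (0.64) rose. CCND1 (-2.03), VIM (-1.70) and CD44 (-1.23) fell. Handling of cells can induce FOS, JUN and ATF3, so 12 heat shock and stress genes were counted beside them, with 6 higher, 3 lower and 3 not called (median 0.08). HSPH1 (0.99), HSPA1A (0.91) and HSP90AA1 (0.75) rose most and BAG3 (-1.12), HSPE1 (-0.39) and DNAJB1 (-0.25) fell most. HSPA1A has a near-identical copy in the same list, so its count is uncertain. The copy was not called (log2 change -0.04). The part of cell handling in the AP-1 levels was not tested.

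**Figure D4:**
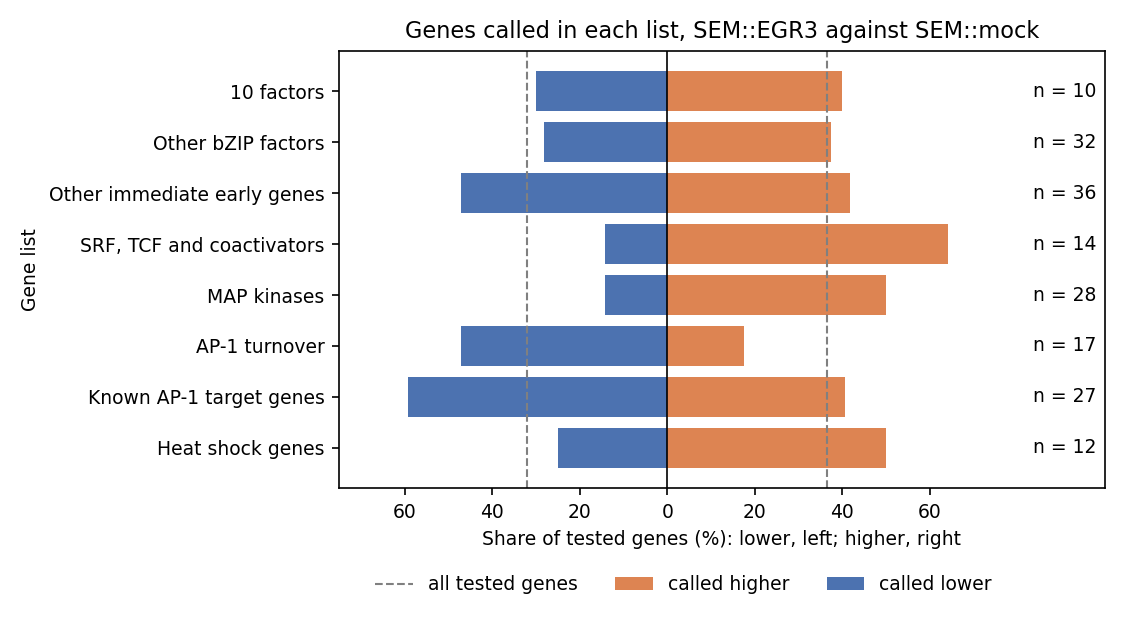
Share of tested genes called higher (right) and lower (left) in each list, in percent, with the number tested and dashed lines at the shares of all tested genes, 36.5% and 32.0%. The 10 factors lie near both dashed lines, with 40% higher and 30% lower.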

How the data were processed

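RNA of 3 SEM::mock and 3 SEM::EGR3 cultures was profiled by MACE-Seq. The authors deposited raw counts per gene and library, made per the labels with bcl2fastq, Bowtie2 and HTSeq on GRCh38 (from the submitters' processing notes). Versions, annotation and strand setting are not given in the sources used here. The headings spell the overexpressed gene ERG3 and were read as the EGR3 line. The 12 other columns of per-sample values (rescaled counts) and the authors' own fold changes and p-values were not used.

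The analysis used edgeR 4.0.16 (R 4.3.3), with filterByExpr, TMM, glmQLFit and glmQLFTest on all 6 libraries without a covariate, with Benjamini-Hochberg adjustment over 15465 genes and a call at 0.05. The fits were tested on simulated data. SE is the log2 change divided by the square root of F. Replicates of a line differed by more than counting noise, with a chi-square per degree of freedom of 1.71 to 3.12. Where no library of a line exceeded 3 counts, the fold is a lower bound against 3 counts per library, which covers counting error only. List medians take such a gene at its bound. The shares of tested genes with a higher or lower log2 change than a member do so too, so these shares are minimums. Gene positions are from GENCODE (GRCh38) and promoters from RefSeq (GRCh38.p14). From each list, up to 3 called genes per direction with the largest fitted log2 change were named, if the higher line averaged 100 counts or more, besides the 10 members and EGR3. A gene that this rule names is not reported here. The members and lists were chosen with earlier results of these data known. The alternatives were DESeq2 1.42.0, no normalization factors, upper quartile and RLE factors, no filter, a minimum of 10 counts per library, a robust fit, a replicate block, a floor of 5 counts and leaving out each library.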

Additional observations from a re-analysis of the deposited data

How the results depend on the processing

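Of the 10 members, 9 kept their side of the threshold in all 14 alternatives, FOSB in those that tested it, since the minimum of 10 counts in every library removed it. The exception is FOSL2, called higher without normalization factors (log2 change 0.27, adjusted p = 0.0344, range over the alternatives 0.0344 to 0.412). FOS, near 0 throughout, changed sign with DESeq2 (-0.0021), RLE factors (-0.00015) and no filter (-0.00069), and ranged from -0.12 to 0.17 when a library was left out. In the list of serum response factor, partners and coactivators, 1 gene rather than 2 was lower with DESeq2, without normalization factors and without SEM::EGR3 replicate 1. Without normalization factors 5 rather than 8 turnover genes were lower. With at least 10 counts in every library 19 AP-1 targets were tested, of which 5 rather than 11 were higher. That minimum removes genes near 0 in SEM::mock, such as CDKN2A and HBEGF, which could only be called higher. Of the 41 genes named from the lists, with EGR3, 39 kept their call in each alternative that tested them. FBXW7 lost it with DESeq2, without a filter, with the replicate block and without any 1 of SEM::mock replicates 1, 2 and 3 and SEM::EGR3 replicates 2 and 3. MRTFA lost it with DESeq2, without normalization factors and without SEM::EGR3 replicate 1 (adjusted p 0.00524 to 0.107 over the alternatives). The cause of the other shifts was not tested. Replicates of the same number did not deviate together (r = -0.138, -0.0934 and -0.0431). With 3 libraries per line, taken as deviations from the mean of their line, these values cannot show whether the cultures were paired. A fit with the replicate block gave 4 members higher and 3 lower. With a floor of 5 counts, as with 3, 0 members were at or under the floor. FOS and FOSB, at 7 to 85 counts per library, are the least precise.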
